A study of Mus musculus with 8 samples.

Results

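Lysine methyltransferase and lysine demethylase genes were followed in mouse neuroblastomas exposed to panobinostat. The genes were chosen by name alone: every gene whose GENCODE M21 symbol begins with Kmt, Setd, Prdm or Kdm and a number, with Ehmt or Suv39h, or is Nsd1, Nsd2 or Nsd3 (Setd genes with a letter after the stem, such as Setdb1, were included). This rule matched 59 annotated genes, and 54 of them were among the 17488 genes with values, 53 coding genes and the antisense RNA Kdm6bos. The pseudogene Kdm4dl and Prdm8, Prdm12, Prdm13 and Prdm14 were not analysed here. The naming rule uses no expression values, but the family was taken up with earlier results of these data known.

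All 8 mice were homozygous for TH-MYCN, a transgene in which the tyrosine hydroxylase promoter drives human MYCN in cells of the sympathetic lineage, and all carried intra-abdominal neuroblastomas. In the treated group, 4 mice received 5 mg/kg panobinostat in 2 doses 24 h apart, and 4 mice received vehicle. Treatment began at a tumour size of 200 to 300 mm3, at about 6 weeks of age, and tumours were taken 4 h after the second dose. Each library came from the whole tumour of a separate animal, stroma included. Sex is not given in the labels used here. The expression unit throughout is log2 CPM, the log2 of counts scaled to an effective library size, and 1 CPM corresponded to 19.3 to 22.6 reads. That size was below the reads over listed genes in each vehicle library and above them in each panobinostat library. The median log2 change of all genes tested was -0.02 on this scale and 0.10 when scaled to read totals.

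Methylation of histone lysines is written by enzymes that take the methyl group from S-adenosylmethionine, most of them through a SET domain, and it is removed by amine oxidases of the LSD type or by Jumonji oxygenases that use iron and 2-oxoglutarate. Marks on H3K4 and H3K36 accompany transcribed chromatin, whereas methylated H3K9 and trimethylated H4K20 are found in silent chromatin. Panobinostat acts on another layer of the same histone tails: it inhibits histone deacetylases.

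Most members were lower in the panobinostat tumours. Of the 52 members with at least 1 CPM in at least 4 libraries, 34 were lower, 7 were higher and 11 passed the test in neither direction (limma, adjusted p under 0.05 over 16157 genes). Among all genes tested, 63.7% passed, 32.4% lower and 31.2% higher. The share lower was thus above the background in this family and the share higher below it. Members and background were not matched for expression level. With at least 5 CPM in at least 4 libraries, 33 of 49 members were lower and 5 higher, beside 4826 and 4090 of 12962 genes. The median log2 change of the 52 members was -0.69, against -0.02 for all genes tested, and single members ranged from -2.96 for Kdm8 to 1.52 for Prdm9. The change was at least 2-fold in 18 of the lower members, where 13.5% of all genes were lower by that much, and in 4 of the higher members, where the share of all genes was 20.7%. Tested against a change of 1.5-fold rather than 0, 20 members were lower and 3 were higher, beside 13.5% and 17.3% of all genes. In 41 of 52 members the 4 vehicle and 4 panobinostat libraries did not overlap, as in 59.7% of all genes tested. Fewer cells of a type and less RNA per cell cannot be told apart in RNA from whole tumours.

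**Figure D1:**
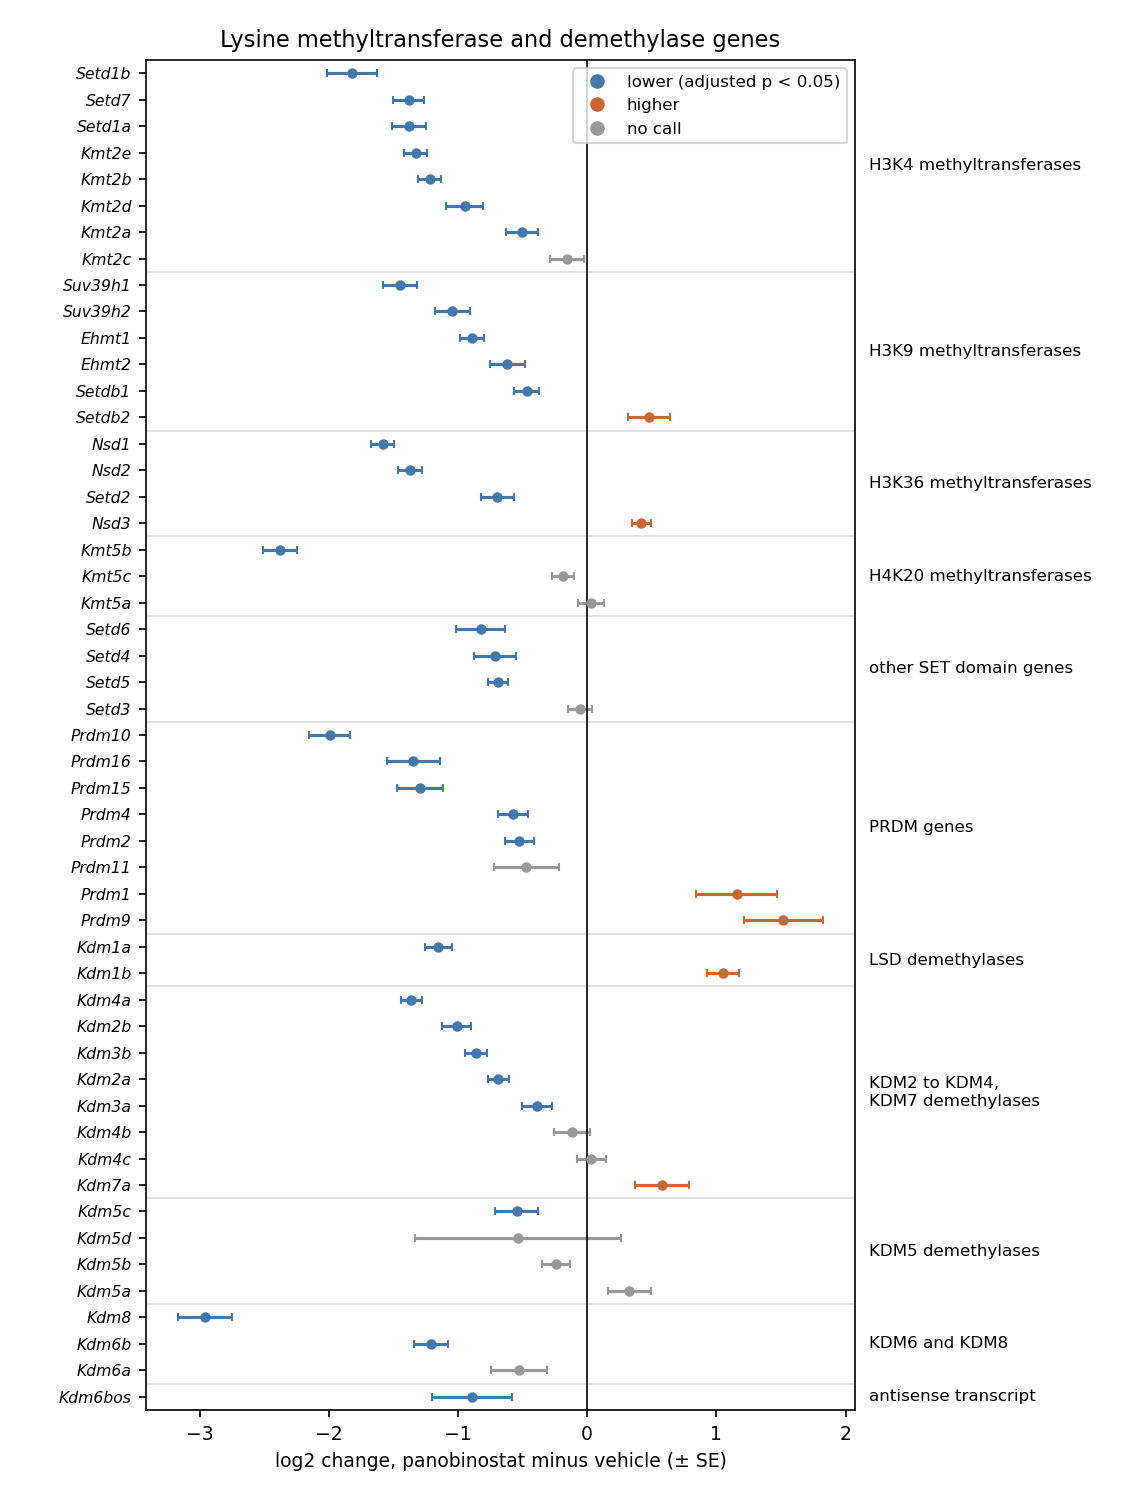
Log2 change (panobinostat minus vehicle) of 51 tested members, grouped by role, with points at the limma estimate and bars of 1 standard error. Blue marks members that were lower, orange members that were higher and grey members that passed in neither direction. The 34 lower members lie left of 0 in every role, and the higher members shown lie between 0.42 and 1.52.

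The summed level of the members was 6115, 6366, 6075 and 6506 CPM in vehicle libraries 1 to 4. It was 3749, 3771, 3507 and 3765 CPM in panobinostat libraries 1 to 4, which is 59% of the vehicle mean. The groups were far apart and the libraries within each group were close together. By class, the sum stood at 55.8% of vehicle for the 25 SET domain methyltransferases and their relatives, 64.5% for the PRDM genes and 65.6% for the KDM demethylases. The median SD of the members over libraries was 0.19 with vehicle and 0.10 with panobinostat, against 0.30 and 0.16 for all genes tested, on the log2 scale. The genes were not matched for expression level, and whether the lower SD is particular to this family was not tested.

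Depth and markers of other cells were measured in the same libraries. Libraries held 18664066 to 23830026 reads over the listed genes. Macrophage markers were higher in 10 of 12 cases and those of fibroblasts and mural cells in 11 of 12, those of Schwann cells in 7 of 10 and those of adipocytes in 6 of 8. Among all genes tested, 31.2% were higher and 32.4% lower. Endothelial markers were higher in 3 of 10 cases, near the share of all genes. Their sums were 121.5 to 600.1 CPM with vehicle and 388.3 to 607.8 CPM with panobinostat. Summed markers of macrophages were 598 to 1199 CPM with vehicle and 2819 to 5026 CPM with panobinostat, and those of fibroblasts and mural cells were 1554 to 4928 and 8513 to 15810 CPM. For adipocytes the sums were 94.0 to 849 and 1266 to 1784 CPM, and for Schwann cells 200.2 to 257 and 206 to 547 CPM. Red blood cell markers stood at 9633 CPM in panobinostat library 1, at 461 to 1266 CPM in the other panobinostat libraries and at 2358 to 3381 CPM with vehicle. Liver markers reached 9733 CPM and kidney and pancreas markers 1949 CPM in panobinostat libraries, with at most 61.5 and 13.3 CPM in vehicle libraries, and adrenal cortex markers reached 3014 CPM against at most 24.2. Mc2r and Nr5a1 of the adrenal cortex and Serpina1c of the liver were at 0 reads in at least 1 vehicle library. So were Slc34a1 of the kidney and Lep of fat. Slc34a1, Kap and Prss2 of the kidney and pancreas and Pax5 of B cells were at 0 reads in at least 1 panobinostat library. Sympathoadrenal markers were 3271 to 3985 CPM with vehicle and 1388 to 1909 CPM with panobinostat, none was at 0 reads, and 8 of 12 were lower. All 15 markers of dividing cells were lower, with sums of 4745 to 5505 and 1727 to 2128 CPM. The part of these shifts in the members' changes was not tested. Without panobinostat libraries 3 and 4, which held most of the liver, kidney and pancreas reads, 31 members were lower and 5 were higher (25.0% and 23.4% of all genes).

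**Figure D2:**
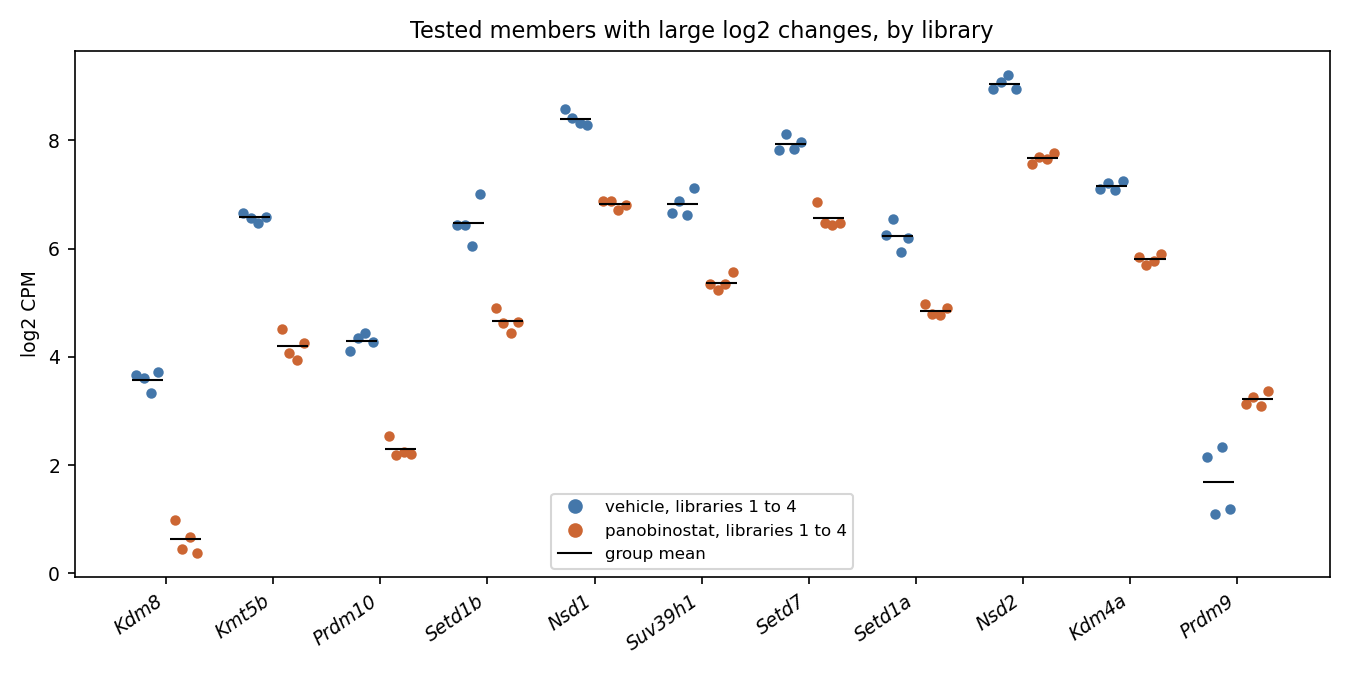
Log2 CPM in each of the 4 vehicle (blue) and 4 panobinostat (orange) libraries for 11 tested members with large log2 changes, with a line at each group mean. In all 11 the groups are apart, with panobinostat below vehicle in 10 members and above it in Prdm9.

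The H3K4 methyltransferases were lower with 1 exception. Of 8 genes tested, 7 were lower and none was higher, beside 32.4% lower and 31.2% higher among all genes tested. The median log2 change was -1.27 and the summed level was at 52.6% of vehicle. They comprise the catalytic subunits of the COMPASS-type complexes, the related protein Kmt2e, which binds the mark rather than writing it, and the monomethylase Setd7. Setd1b, which carries trimethylation of promoters together with Setd1a, read 6.43, 6.44, 6.05 and 7.01 log2 CPM in vehicle libraries and 4.91, 4.63, 4.45 and 4.65 in panobinostat libraries. All panobinostat values lay below all vehicle values, and Setd1b fell by 1.82 (SE 0.19, adjusted p = 4.84e-05).

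Setd1a read 6.26, 6.55, 5.94 and 6.20 with vehicle and 4.97, 4.79, 4.77 and 4.90 with panobinostat, a log2 change of -1.38 (SE 0.13, adjusted p = 3.01e-05). Setd7 was measured at 7.83, 8.13, 7.84 and 7.97 with vehicle and at 6.87, 6.47, 6.44 and 6.47 with panobinostat, also a change of -1.38 (SE 0.12, adjusted p = 1.84e-05). In both genes the groups were separate, and panobinostat library 1 was the highest of its group. Kmt2e was at 8.01, 8.03, 7.90 and 7.86 with vehicle and 6.73, 6.63, 6.48 and 6.65 with panobinostat, and fell by 1.33 (SE 0.09, adjusted p = 6.02e-06). Kmt2b, an MLL-type enzyme of promoters, was at 7.76, 7.84, 7.67 and 7.92 with vehicle and 6.62, 6.58, 6.43 and 6.68 with panobinostat, and fell by 1.22 (SE 0.09, adjusted p = 9.67e-06). Both genes had narrow groups with a wide gap between them. A 972-base stretch of Kmt2e exons, 9.31% of its length, is shared with Srpk2 on the other strand, whose own log2 change was 0.03.

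The large MLL enzymes moved by unequal amounts. Kmt2d, which monomethylates H3K4 at enhancers, fell by 0.95 (SE 0.14, adjusted p = 0.000392). Kmt2a, the gene rearranged in leukaemia, fell by 0.51 (SE 0.12, adjusted p = 0.00543). Kmt2c, the enhancer paralog of Kmt2d, did not pass the test, with a log2 change of -0.16 (SE 0.13, adjusted p = 0.320). Without vehicle library 4 it passed, at -0.27 (adjusted p = 0.0477, range 0.0155 to 0.8292 over the alternatives). That was the lowest vehicle library in Kmt2c, so leaving it out widens the fall by construction, and the pass does not establish a change. The call for Kmt2a was lost when panobinostat libraries 3 and 4 were left out and under quantile normalization, and its adjusted p over the alternatives that tested for any change ran from 0.00170 to 0.267.

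All 6 H3K9 methyltransferases passed the test, 5 lower and 1 higher, where 63.7% of all genes tested passed. Their median log2 change was -0.75. Suv39h1 and Suv39h2 trimethylate H3K9 in pericentric heterochromatin. Suv39h1, on the X chromosome (8061171 to 8074760), read 6.66, 6.89, 6.62 and 7.12 log2 CPM with vehicle and 5.34, 5.24, 5.36 and 5.56 with panobinostat. The groups did not overlap, and Suv39h1 fell by 1.45 (SE 0.13, adjusted p = 2.12e-05), while Suv39h2 changed by -1.04 (SE 0.14, adjusted p = 0.000157). Suv39h2 shares 8.10% of its exon bases with Dclre1c on the other strand, which moved the opposite way by 1.25.

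Ehmt1 and Ehmt2, known as GLP and G9a, form the complex that dimethylates H3K9 in euchromatin. Ehmt1 was at 6.92, 6.95, 7.10 and 7.22 with vehicle and 6.24, 6.18, 6.08 and 6.14 with panobinostat. Every panobinostat library was below every vehicle library, and Ehmt1 fell by 0.89 (SE 0.09, adjusted p = 4.49e-05), beside 0.62 for Ehmt2 (SE 0.13, adjusted p = 0.00304). Setdb1, which silences retroelements with Trim28, fell by 0.47 (SE 0.09, adjusted p = 0.00185). Its relative Setdb2 was the higher member of the class, with a log2 change of 0.48 (SE 0.16, adjusted p = 0.0277). That call was lost on other centrings, without vehicle library 3 and without panobinostat library 1 or 4, and its adjusted p over the alternatives ran from 0.0110 to 0.226.

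The H3K36 class split between close relatives. Nsd1 and Nsd2, which dimethylate H3K36, were lower, whereas Nsd3 was higher. Nsd1 (chromosome 13, 55209782 to 55318325 in mm10) read 8.58, 8.41, 8.33 and 8.29 log2 CPM with vehicle and 6.88, 6.87, 6.71 and 6.82 with panobinostat, and fell by 1.58 (SE 0.09, adjusted p = 4.74e-06). Nsd2 (chromosome 5, 33820725 to 33897975) read 8.96, 9.07, 9.22 and 8.95 with vehicle and 7.57, 7.70, 7.66 and 7.77 with panobinostat, and fell by 1.37 (SE 0.09, adjusted p = 7.07e-06). In both, the 2 groups were over 1 log2 unit apart. Nsd3 (chromosome 8, 25601601 to 25719667) read 6.78, 6.76, 6.83 and 6.67 with vehicle and 7.17, 7.25, 7.15 and 7.15 with panobinostat, a log2 change of 0.42 (SE 0.08, adjusted p = 0.00107). Its groups did not overlap either, with the panobinostat libraries on top. Setd2, the enzyme that trimethylates H3K36 behind elongating polymerase, fell by 0.69 (SE 0.13, adjusted p = 0.00134).

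Among the 3 H4K20 methyltransferases, only Kmt5b passed the test, where 63.7% of all genes tested passed. Kmt5b and Kmt5c, known as SUV4-20H1 and SUV4-20H2, add further methyl groups after Kmt5a has placed the first. Kmt5b (chromosome 19, 3767421 to 3818303) read 6.67, 6.57, 6.47 and 6.59 log2 CPM with vehicle and 4.51, 4.08, 3.94 and 4.26 with panobinostat, the second largest change of all members at -2.38 (SE 0.13, adjusted p = 4.65e-06), a 5.21-fold lower level. The lowest vehicle library was far above the highest panobinostat library. Kmt5c was at 6.04, 5.85, 5.86 and 5.99 with vehicle and 5.78, 5.73, 5.74 and 5.72 with panobinostat: its groups did not overlap, but the change of -0.19 (SE 0.08, adjusted p = 0.0762) missed the threshold. Centred on the median of all genes or on a trimmed mean, Kmt5c was at -0.31 and -0.35 and passed (adjusted p = 0.00711 and 0.00443, with a highest value of 0.480 over the alternatives). Kmt5a was at 6.15, 6.48, 6.10 and 6.28 with vehicle and 6.31, 6.29, 6.30 and 6.22 with panobinostat, with overlapping groups and a change of 0.03 (SE 0.10, adjusted p = 0.817), a value whose sign turned when the libraries were centred on the median or on a trimmed mean.

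Of the other SET domain genes, 3 of 4 were lower and none was higher, beside 32.4% and 31.2% of all genes tested. Setd5, a large chromatin protein linked to intellectual disability, read 8.12, 8.17, 7.98 and 8.07 with vehicle and 7.40, 7.42, 7.34 and 7.41 with panobinostat, a change of -0.69 (SE 0.08, adjusted p = 6.65e-05). Setd4 read 3.26, 3.28, 3.02 and 2.99 with vehicle and 2.48, 2.37, 2.56 and 2.31 with panobinostat, a change of -0.71 (SE 0.16, adjusted p = 0.00390). Both had separate groups. Setd6, which methylates the NF-kappaB subunit RelA, fell by 0.82 (SE 0.19, adjusted p = 0.00428). Setd3, the actin histidine methyltransferase, was at -0.05 (SE 0.09, adjusted p = 0.631). After quantile normalization Setd3 was at 0.20 and passed in the higher direction (adjusted p = 0.0383), the lowest adjusted p of any alternative, and on the other scalings it ran from -0.21 to 0.0658 without passing.

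PRDM genes encode zinc finger proteins with a PR domain, a relative of the SET domain that is inactive as an enzyme in many of them. Of 9 tested, 5 were lower, 3 were higher and 1 passed in neither direction, beside 32.4% lower and 31.2% higher among all genes tested. The share higher was thus near that of all genes. The class held 3 of the 4 members that were higher by at least 2-fold, a change seen in 20.7% of all genes. Prdm10 (chromosome 9, 31280538 to 31381723) read 4.10, 4.34, 4.44 and 4.27 log2 CPM with vehicle and 2.55, 2.20, 2.23 and 2.21 with panobinostat, and fell by 1.99 (SE 0.16, adjusted p = 1.12e-05). Prdm15, a regulator of pluripotency genes, read 4.69, 4.53, 5.00 and 5.29 with vehicle and 3.69, 3.60, 3.64 and 3.40 with panobinostat, and fell by 1.30 (SE 0.18, adjusted p = 0.000210). Neither gene had overlapping groups. Prdm16, known for its part in brown fat and neural stem cells, changed by -1.34 (SE 0.21, adjusted p = 0.000407), Prdm4 by -0.58 and Prdm2 by -0.52. Prdm11 did not pass, at -0.47 (SE 0.25, adjusted p = 0.128), with panobinostat library 4 at 3.37 near the top of the vehicle range of 2.98 to 3.39. Without that library it passed, at -0.70 (adjusted p = 0.0157, range 0.0132 to 0.306). It was the highest panobinostat library in Prdm11, so leaving it out widens the fall by construction, and the pass does not establish a change.

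Higher PRDM genes were among the members with the fewest reads. Prdm9, which places meiotic recombination sites by trimethylating H3K4 and H3K36 in germ cells, had 100, 43, 114 and 48 reads in vehicle libraries and 194, 185, 179 and 202 in panobinostat libraries. All treated tumours had more reads than any control, and the log2 change was 1.52 (SE 0.30, adjusted p = 0.00196). Prdm1, the repressor also called Blimp-1 that drives plasma cell differentiation, had 57, 25, 28 and 45 reads with vehicle and 109, 84, 74 and 54 with panobinostat, a change of 1.16 (SE 0.32, adjusted p = 0.0102). The groups of Prdm1 overlapped in reads, though not in log2 CPM. The call for Prdm1 was lost without vehicle library 3 and panobinostat library 1 together and under quantile normalization, with adjusted p from 0.00346 to 0.124 over the alternatives. The summed level of markers of B and plasma cells stood at 118% of vehicle, most of it Sdc1, which is not limited to these cells. The sum for T and NK cells stood at 182%, carried by Cd4, while Lck was lower by 1.31 on the log2 scale (-1.31) and Cd3e had at most 54 reads in any library. The part of these cells in the Prdm1 value was not tested. Prdm6, a repressor of smooth muscle genes that was below the minimum for testing, had 4, 3, 2 and 4 reads with vehicle and 45, 55, 27 and 9 with panobinostat.

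The amine oxidase demethylases moved in opposite directions. Kdm1a, or LSD1, removes mono- and dimethylation from H3K4 within the CoREST complex together with histone deacetylases, and Kdm1b, or LSD2, acts on the same mark in gene bodies. Kdm1a (chromosome 4, 136550540 to 136602723) read 7.62, 7.84, 7.88 and 8.08 log2 CPM with vehicle and 6.73, 6.65, 6.71 and 6.72 with panobinostat, and fell by 1.15 (SE 0.10, adjusted p = 2.09e-05). Kdm1b (chromosome 13, 47043499 to 47085279) read 4.21, 4.51, 4.54 and 4.61 with vehicle and 5.39, 5.42, 5.63 and 5.63 with panobinostat, a change of 1.05 (SE 0.12, adjusted p = 8.88e-05), a 2.07-fold higher level. The groups were separate in both genes, with panobinostat below vehicle for Kdm1a and above it for Kdm1b. Of the Kdm1b exon bases, 505 or 9.19% overlap Dek on the other strand, and Dek itself moved the other way, by -0.72 (SE 0.20).

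Among the KDM2 to KDM4 and KDM7 demethylases, 5 of 8 were lower and 1 was higher, beside 32.4% and 31.2% of all genes tested. Kdm4a, a demethylase of trimethylated H3K9 and H3K36, read 7.10, 7.21, 7.08 and 7.25 with vehicle and 5.84, 5.71, 5.76 and 5.89 with panobinostat, and fell by 1.36 (SE 0.08, adjusted p = 5.58e-06). Its paralog Kdm4b read 6.16, 6.24, 6.45 and 6.76 with vehicle and 6.10, 6.37, 6.29 and 6.37 with panobinostat, a change of -0.12 (SE 0.14, adjusted p = 0.470). Kdm4c read 4.89, 4.72, 5.10 and 5.02 with vehicle and 5.04, 4.94, 4.88 and 5.00 with panobinostat, a change of 0.03 (SE 0.11, adjusted p = 0.816). The groups were well apart for Kdm4a and overlapped for Kdm4b and Kdm4c. The germ cell gene Kdm4d was below the minimum for testing, with 16, 13, 10 and 9 reads with vehicle and 18, 29, 22 and 20 with panobinostat.

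Kdm3b, which removes mono- and dimethylation from H3K9, read 7.30, 7.26, 7.29 and 7.49 with vehicle and 6.48, 6.55, 6.36 and 6.50 with panobinostat, with no overlap and a change of -0.86 (SE 0.09, adjusted p = 3.80e-05). Gm26538 covers 24.6% of its exon bases on the other strand and was itself at 0.92 log2 CPM with vehicle. The CpG island proteins Kdm2a and Kdm2b fell by 0.69 and 1.01 (adjusted p = 0.000107 and 6.22e-05). Kdm3a, a target of hypoxia signalling, changed by -0.39 (SE 0.12, adjusted p = 0.0154), a call that was lost without panobinostat library 3, after quantile normalization and on read totals, with adjusted p from 0.00210 to 0.151 over the alternatives. Kdm7a, which acts on H3K9 and H3K27, was higher by 0.58 (SE 0.21, adjusted p = 0.0367). That call did not survive leaving out vehicle library 2 or any 1 of the 4 panobinostat libraries, nor centring on the median, and its adjusted p ran from 0.00665 to 0.125.

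The KDM5 demethylases, which remove trimethylation from H3K4, stood closest to vehicle in summed level, at 86.1%. Of these 4 genes 1 was lower, near the share of 32.4% among all genes tested. Kdm5c, on the X chromosome, read 6.90, 6.88, 7.21 and 7.61 with vehicle and 6.84, 6.51, 6.48 and 6.58 with panobinostat, and was lower by 0.55 on the log2 scale (-0.55, SE 0.17, adjusted p = 0.0178). Panobinostat library 1 lay just under the lowest vehicle library, and the call was lost without panobinostat library 3 and after quantile normalization, with adjusted p from 0.00625 to 0.128 over the alternatives. Kdm5b read 6.81, 6.97, 7.16 and 7.23 with vehicle and 6.88, 6.79, 6.71 and 6.83 with panobinostat, with overlapping groups and a change of -0.24 (SE 0.11, adjusted p = 0.0733). Without vehicle library 1 it passed, at -0.32 (adjusted p = 0.0205, range 0.0160 to 0.988). Kdm5a was at 0.33 (SE 0.17, adjusted p = 0.117). Without vehicle library 2 it passed in the higher direction, at 0.45 (adjusted p = 0.0375, range 0.0197 to 0.505). Vehicle library 1 was the lowest vehicle library in Kdm5b, and vehicle library 2 the highest in Kdm5a. Leaving that library out widens the gene's difference by construction, so neither pass establishes a change.

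Kdm5d is the Y-linked KDM5 gene (Y chromosome, 897788 to 956786), and its libraries were unlike each other within both groups. It had 803, 651, 88 and 627 reads with vehicle and 83, 325, 466 and 416 with panobinostat, a change of -0.54 with a wide error (SE 0.80, adjusted p = 0.575). The low panobinostat library, number 1, also had the fewest reads of the Y-linked genes Ddx3y, Eif2s3y and Uty (199, 236 and 95 reads, against 581 to 2218, 779 to 2020 and 287 to 524 elsewhere), and it had 23048 reads of Xist, against 24 to 60 in the other 7 libraries. The low vehicle library, number 3, was not low in those 3 Y-linked genes, with 1599, 1524 and 501 reads. Without these 2 libraries the log2 difference in Kdm5d was -0.69, given with no test because they were picked as the lowest in Kdm5d of each group.

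**Figure D3:**
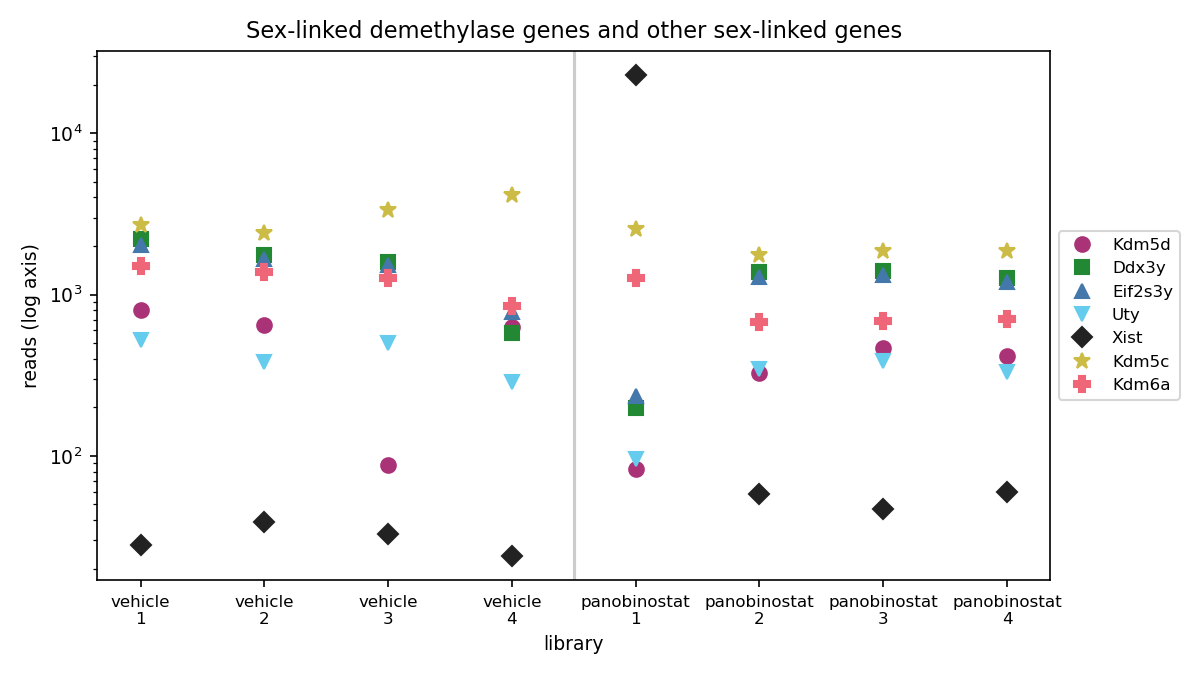
Reads (log axis) of Kdm5d, the X-linked members Kdm5c and Kdm6a, and Ddx3y, Eif2s3y, Uty and Xist in each of the 8 libraries, 1 symbol per gene, with vehicle libraries on the left. Panobinostat library 1 stands apart in Xist and in the Y-linked genes, and vehicle library 3 stands apart in Kdm5d, with 88 reads.

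Kdm8 changed more than any other tested member. This Jumonji protein, also called JMJD5, is an oxygenase needed for normal cell cycle progression. Kdm8 (chromosome 7, 125444676 to 125462269) read 3.67, 3.61, 3.33 and 3.71 log2 CPM with vehicle and 1.00, 0.46, 0.68 and 0.38 with panobinostat. That was 227 to 288 reads in the vehicle libraries and 25 to 44 in the panobinostat libraries, with a wide gap between the groups. Kdm8 fell by 2.96 (SE 0.21, adjusted p = 8.13e-06), a 7.75-fold lower level.

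The H3K27 demethylases Kdm6b and Kdm6a differed in their calls. Kdm6b, or JMJD3, which removes methyl groups from H3K27, read 7.67, 7.85, 7.69 and 8.26 with vehicle and 6.59, 6.62, 6.66 and 6.76 with panobinostat, with no overlap and a change of -1.21 (SE 0.13, adjusted p = 5.90e-05). Its X-linked relative Kdm6a, or UTX, read 6.05, 6.09, 5.81 and 5.33 with vehicle and 5.83, 5.13, 5.04 and 5.17 with panobinostat, a change of -0.53 (SE 0.22, adjusted p = 0.0568). Panobinostat library 1, the library with high Xist, lay within the vehicle range. Without it Kdm6a changed by -0.71 and passed the test (adjusted p = 0.01135), as it did without vehicle library 4 at -0.69 (adjusted p = 0.0154, with a range of 0.00384 to 0.334 over the alternatives). These were the highest panobinostat and the lowest vehicle library in Kdm6a. Leaving either out widens the fall by construction, so these passes do not establish a change. The antisense RNA Kdm6bos had 22 to 47 reads per vehicle library and 14 to 27 per panobinostat library. It shares 286 of its exon bases with Kdm6b, about 34%, and reads from that stretch cannot be told apart without strand. Its change of -0.89 (SE 0.31, adjusted p = 0.0310) lost its call without any 1 of 6 libraries, all but vehicle library 4 and panobinostat library 1, and its adjusted p ran from 0.000727 to 0.199.

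Ranked by level per kilobase of exon, Ehmt2 headed the family in both groups, at 49.4 ± 10.3 CPM per kb with vehicle (SD, n = 4) and 31.8 ± 1.59 with panobinostat. The next in vehicle tumours were Kdm1a (45.1 ± 5.88), Kdm6b (34.1 ± 6.91), Nsd2 (31.6 ± 2.79) and Kdm4a (24.8 ± 1.46). Ehmt2 and Kdm1a did not differ beyond their spread, nor did Kdm6b and Nsd2. In panobinostat tumours Setd3 was second (23.7 ± 1.49) and Kdm1a next (20.2 ± 0.51), followed by Kdm4b (16.0 ± 1.36), Setdb1 (15.2 ± 0.53) and Kmt5a (14.7 ± 0.44). Those last 3 were close to each other relative to their spread. The order below the top was rearranged: Nsd1 went from place 13 of 54 to place 30, Suv39h1 from 10 to 26, Kdm1b from 41 to 24 and Nsd3 from 35 to 22. Among the lowest levels with vehicle were those of Prdm6 and Kdm4d, at 0.0499 and 0.201 CPM per kb.

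**Figure D4:**
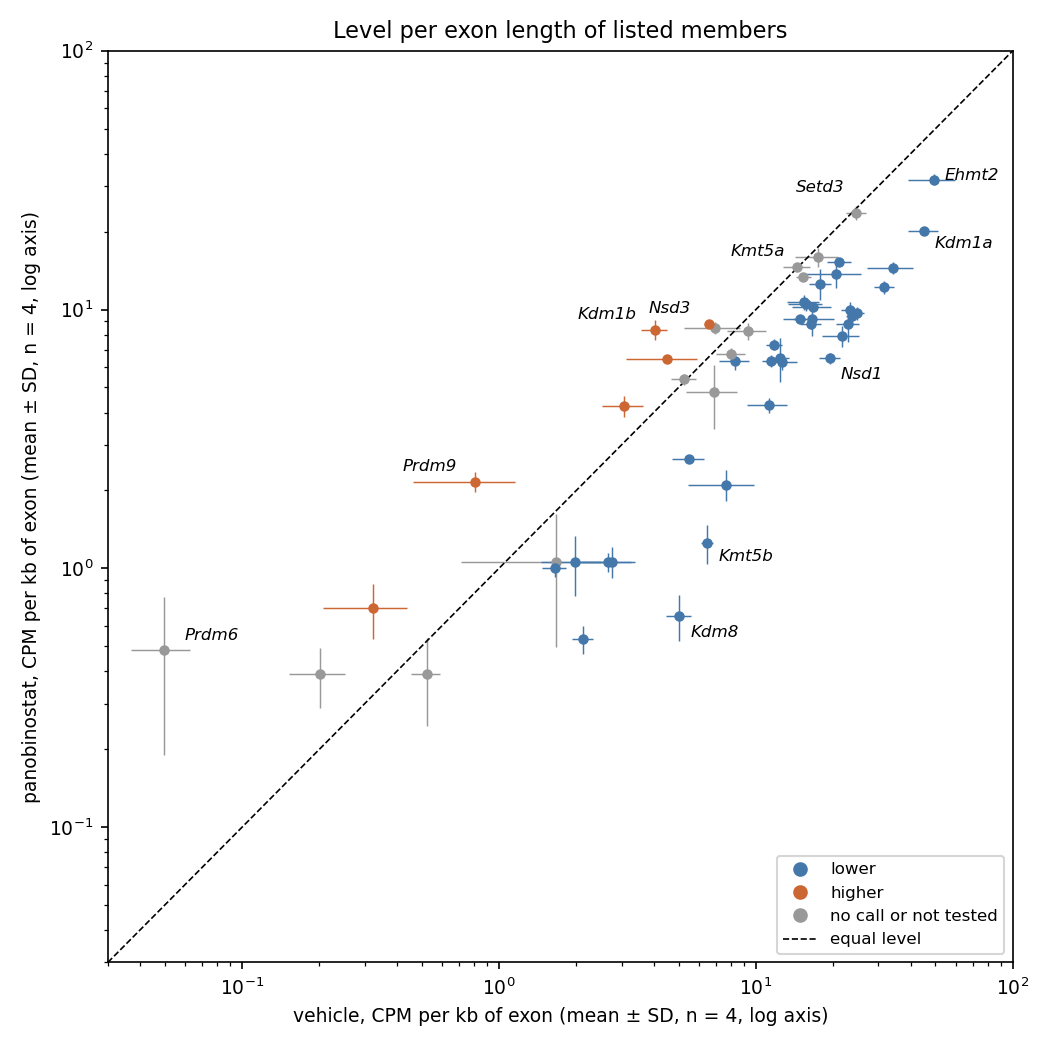
Mean CPM per kilobase of exon of 53 listed members with vehicle (horizontal, log axis) and panobinostat (vertical, log axis), with bars of 1 SD over 4 libraries and a dashed line of equal levels; colours are as in the plot of log2 changes by role. Kdm8 and Kmt5b lie far below the diagonal, Kdm1b and Nsd3 above it, and Setd3 and Kmt5a close to it.

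Ratios between close relatives were compared within each library, so that scaling of the library cancels. Of 20 pairs of paralogs, 15 differed between the groups at the smallest p that 70 assignments of 4 against 4 libraries allow (two-sided exact permutation test, p = 0.0286, adjusted p = 0.0381 over the 20 pairs). The pairs were drawn from genes whose single changes are given above, so the ratios restate those values on a scale free of library size. Some genes entered several pairs. The share of other gene pairs that would differ was not computed, so the count is not a trait of paralogs. Among single genes, 59.7% of all tested had groups that did not overlap. With any 1 panobinostat library left out, 8 to 11 pairs stood at the smallest p (0.0286, exact test of 35 assignments). Fewer pairs at that floor put the smallest adjusted p at 0.0519 to 0.0714, so that none passed the adjusted threshold, and no pair changed direction.

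The log2 ratio of Kdm1a to Kdm1b had the largest difference. It was 3.41, 3.33, 3.35 and 3.47 with vehicle and 1.35, 1.23, 1.08 and 1.09 with panobinostat, a difference of -2.20. Every vehicle ratio lay above every panobinostat ratio. Kmt5b over Kmt5c followed, at 0.64 ± 0.05 with vehicle and -1.55 ± 0.23 with panobinostat (SD, n = 4), and Nsd1 over Nsd3 went from 1.64 ± 0.12 to -0.36 ± 0.06. Because exon lengths differ, the sign of a ratio of reads does not order the genes, and levels per kilobase were used for that. Per kilobase, Kdm1a was above Kdm1b in both groups, at 45.1 and 4.05 CPM per kb with vehicle and 20.2 and 8.37 with panobinostat. Nsd1 was above Nsd3 with vehicle (19.4 ± 1.75 and 6.57 ± 0.29) and below it with panobinostat (6.47 ± 0.33 and 8.78 ± 0.30). Kdm4a was above Kdm4b with vehicle (24.8 ± 1.46 and 17.5 ± 3.38) and below it with panobinostat (9.66 ± 0.56 and 16.0 ± 1.36). In these 2 pairs the order of the paralogs was thus reversed, whereas Kmt5b was below Kmt5c in both groups. Such a reversal was not limited to them. Kmt2a was below Kmt2b with vehicle (17.8 ± 1.73 and 23.3 ± 1.75) and above it with panobinostat (12.6 ± 1.76 and 9.99 ± 0.71). The order of the means also turned for Kmt2c and Kmt2d, Kdm5a and Kdm5b, and Kdm2a and Kdm2b, with overlapping spreads in at least 1 group. The smallest difference was that of Kdm4b over Kdm4c, 1.47 ± 0.20 and 1.32 ± 0.17 (difference -0.15, two-sided exact permutation p = 0.371). Ehmt1 over Ehmt2, Setd1a over Setd1b and Kdm5b over Kdm5c reached p = 0.0571 in the same exact test and Nsd1 over Nsd2 p = 0.143.

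**Figure D5:**
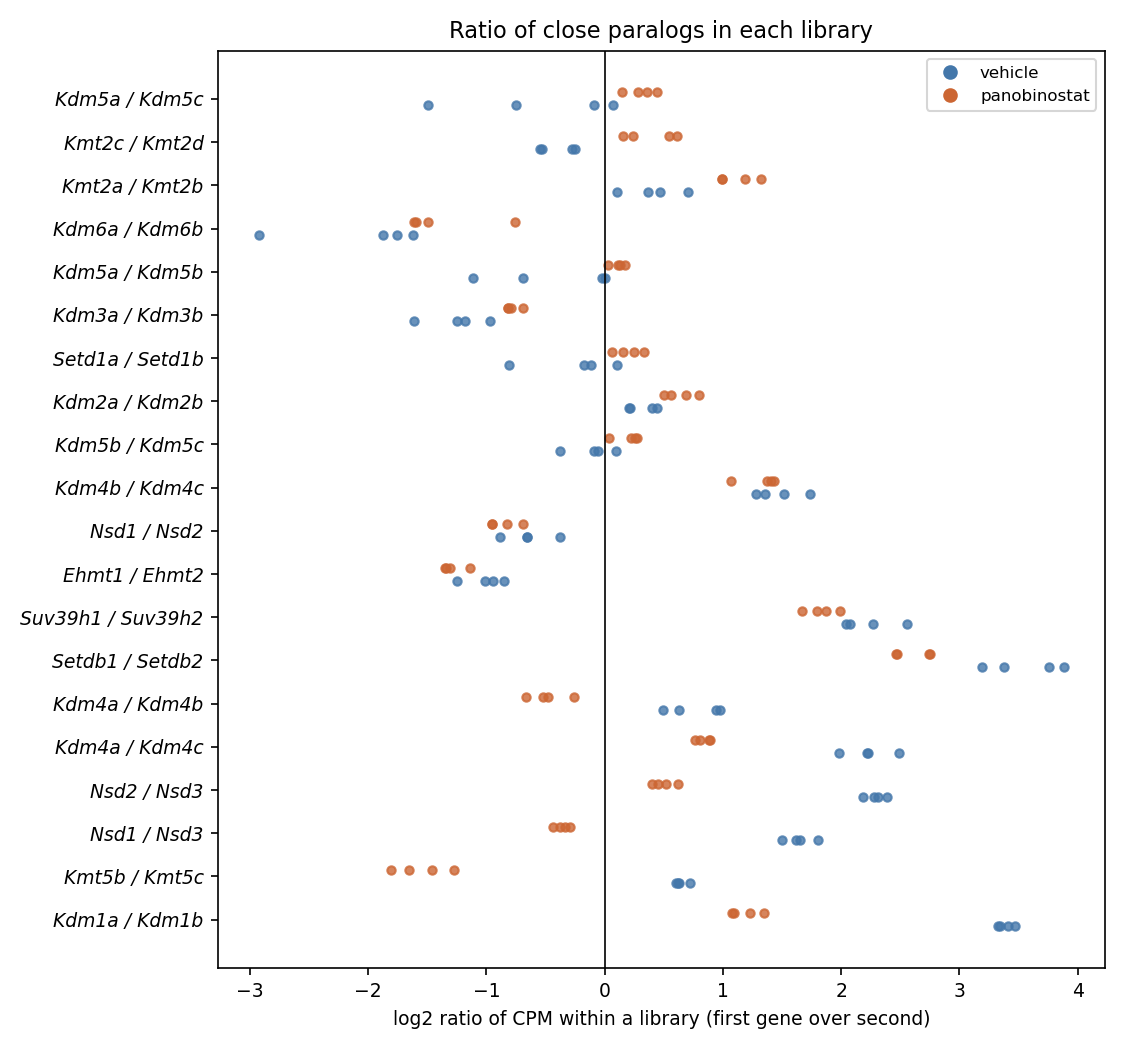
Log2 ratio of the first to the second gene of each of the 20 paralog pairs in each library, vehicle and panobinostat in separate colours. The groups are apart in the pair of Kdm1a and Kdm1b, at 3.33 to 3.47 with vehicle and 1.08 to 1.35 with panobinostat, and overlap in the pair of Kdm4b and Kdm4c.

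The start regions of the pairs with the largest differences in ratio, Kdm1a with Kdm1b and Kmt5b with Kmt5c, are shown because the members of each pair are close relatives in protein function with unlike changes here. Each line gives the 250 bases before a RefSeq transcript start (GRCm38.p6, the assembly of mm10), written 5′ to 3′ on the strand of the gene. Capitals mark matches on either strand to the GC box GGGCGG, the CCAAT box CCAAT and the E2F-type sequence TTTCCCGC. The E-box CACGTG and TTTGGCGC were also searched and have no match in these 4 windows. The Kmt5b line is the first of its annotated starts.
Kdm1a (chr4:136602724-136602973, minus strand): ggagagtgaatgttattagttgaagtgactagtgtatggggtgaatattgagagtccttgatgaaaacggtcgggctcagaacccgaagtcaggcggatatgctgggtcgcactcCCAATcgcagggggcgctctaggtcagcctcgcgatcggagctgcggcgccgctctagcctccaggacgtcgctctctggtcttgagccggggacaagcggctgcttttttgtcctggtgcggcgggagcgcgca
Kdm1b (chr13:47043249-47043498, plus strand): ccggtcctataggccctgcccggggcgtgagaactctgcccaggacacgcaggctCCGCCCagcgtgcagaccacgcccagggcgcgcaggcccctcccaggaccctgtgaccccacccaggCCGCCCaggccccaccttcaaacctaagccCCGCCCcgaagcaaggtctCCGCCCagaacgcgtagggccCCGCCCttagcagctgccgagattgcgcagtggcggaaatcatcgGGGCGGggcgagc
Kmt5b (chr19:3767171-3767420, plus strand): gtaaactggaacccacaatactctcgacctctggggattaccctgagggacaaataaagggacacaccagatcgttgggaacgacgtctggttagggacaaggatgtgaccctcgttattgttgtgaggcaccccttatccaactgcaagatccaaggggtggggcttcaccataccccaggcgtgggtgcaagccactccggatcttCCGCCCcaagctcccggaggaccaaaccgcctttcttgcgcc
Kmt5c (chr7:4739877-4740126, plus strand): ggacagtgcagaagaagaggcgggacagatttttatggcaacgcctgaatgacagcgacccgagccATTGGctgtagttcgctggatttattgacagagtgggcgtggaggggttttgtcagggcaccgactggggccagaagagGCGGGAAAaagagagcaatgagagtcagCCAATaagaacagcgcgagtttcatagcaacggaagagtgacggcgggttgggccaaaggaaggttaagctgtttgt
The Kdm1b window held 6 GC boxes and the Kdm1a window none. The Kdm1a window had 1 CCAAT box, and Kmt5c had 2 CCAAT boxes and 1 match to TTTCCCGC, where Kmt5b had 1 GC box. Of 55 windows of 39 member genes in the RefSeq table, 63.6% held a GC box, against 32.7% of all 32851 windows of this length, and 43.6% held a CCAAT box, against 33.8%. The E-box was present in 7.27% and 6.02%, TTTCCCGC in 3.64% (2 windows) and 0.895%, and TTTGGCGC in 0.00% and 0.417%. These shares count windows, not genes. Some genes have several windows, and those of Kdm2b and Setd3 partly overlap, so the same box can be counted more than once. A match of letters is a description of the window and says nothing of binding.

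Subunits that work with these enzymes were also counted, against 32.4% lower and 31.2% higher among all genes tested. Of 14 COMPASS subunits, which assemble around the H3K4 methyltransferases, 11 were lower and none was higher, with a median log2 change of -0.67. Hcfc1, a scaffold of the Setd1 and Kmt2 complexes, fell by 2.18 (SE 0.11), and Ncoa6, a subunit of the Kmt2c and Kmt2d complexes, by 1.74 (SE 0.09). Of 10 listed partners of LSD1 and CoREST, 6 were lower and 2 were higher. Rcor2, a CoREST scaffold, fell by 2.33 (SE 0.16), while Hmg20b, another subunit, rose by 1.40 (SE 0.11). Of 10 readers and cofactors of H3K9 methylation, 8 were lower and 1 was higher. The heterochromatin protein gene Cbx5 fell by 1.18 (SE 0.09) and the zinc finger gene Zfp462 by 1.47 (SE 0.13).

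Enzymes outside the naming rule were counted in the same fit. Of 15 other lysine methyltransferases, 10 were lower and 1 was higher. Ezh2, the H3K27 methyltransferase of the Polycomb complex, fell by 1.12 (SE 0.09) and Smyd2 by 1.49 (SE 0.12), whereas Ezh1, the paralog of Ezh2, was the gene that rose, by 1.61 (SE 0.16). Of 14 other Jumonji genes, 6 were lower, 1 was higher and 7 passed in neither direction. Phf2, a demethylase of H3K9, fell by 1.61 (SE 0.12), and Jarid2, an inactive relative that works with Polycomb, by 0.82 (SE 0.08). Genes listed around the methyl donor and 2-oxoglutarate, not all of them suppliers, were called at about the rate of all genes (32.4% lower, 31.2% higher). Of these 16 genes 4 were lower and 5 were higher, with a median of 0.13. Mat2a, which makes S-adenosylmethionine, fell by 0.73 (SE 0.08) and Ahcyl1 by 0.53 (SE 0.08), while Ahcyl2 was higher by 0.93 (SE 0.14). All genes named in these last 2 paragraphs had adjusted p-values under 0.001 in the same limma fit.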

How the data were processed

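RNA-seq libraries were made from total RNA of 8 whole tumours with TruSeq V2 chemistry, per the labels' protocols. Of tools, TopHat2, HTSeq, limma and CASAVA 1.8.2 are listed in the submitters' processing notes, with the build mm10 and without roles. Annotation, filter and strand setting: not given in the sources used here. The deposited values are log2 CPM with 0.5 reads added, since undoing this form returned whole reads for 100% of them (tolerance 0.001 read). Genes reaching 1 CPM in 4 or more libraries were fitted in limma 3.58.1 (R 4.3.3, lmFit, eBayes with trend, no covariate, two-sided), with Benjamini-Hochberg adjustment over 16157 genes and a threshold of 0.05. The code of the fit was tested on simulated counts with few changed genes and a common dispersion, a setting unlike these data. Scaling, filters, variance models, thresholds and left-out libraries were varied in 23 alternatives, of which 4 were added after seeing the data.

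Members, roles, pairs and lists were chosen with earlier results of these data known. Counts and medians cover all members, of which 1 is not reported here singly or plotted. Otherwise values per library are given for the 12 members with the largest change, the 2 with the smallest adjusted p of each role, Kdm5d and the pairs with the largest and smallest difference in ratio. From each other list the 2 genes with the smallest adjusted p are named. Nsd3, Kmt5a, Kdm6a, Prdm1, Prdm6, Kdm4d, Rest, Ezh1, Ahcyl2, Hspbap1, Hdac1 and Hdac2, and the pairs compared per kilobase, were picked out after their values were seen. Exon lengths and overlaps come from GENCODE M21 and promoter windows from RefSeq.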

Additional observations from a re-analysis of the deposited data

Results flagged for a closer look

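Of 108 groups of 4 libraries (54 members in 2 treatment groups), 9 held a library that stood apart from the other 3 by more than the 95% limit of Dixon's ratio. Chance gives about 1 in 20 groups. Panobinostat library 1 was the library apart in 6 of the 9: Kdm5d at 1.90 log2 CPM (others 4.08 to 4.48), Kdm6a at 5.83 (others 5.04 to 5.17), Prdm10 at 2.55 (others 2.20 to 2.23), Setd7 at 6.87 (others 6.44 to 6.47), Setdb1 at 6.63 (others 6.72 to 6.73) and Suv39h2 at 3.46 (others 3.56 to 3.57). Panobinostat library 1 also stood apart in the summed markers of red blood cells, at 9633 CPM against 461 to 1266 CPM in the rest of its group. Vehicle library 3 was apart in Kdm5d at 1.97 (others 4.89 to 5.15). Vehicle library 4 was apart in Ehmt2 at 8.47 (others 7.87 to 7.96) and Setdb1 at 7.39 (others 7.08 to 7.12). Of these genes Prdm10, Setd7, Setdb1, Suv39h2 and Ehmt2 were lower with panobinostat whichever single library was left out.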

How the results depend on the processing

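Under the 23 alternatives, 23 of the 41 called members kept their call and direction in every one, and 7 lost it under a setting other than a stricter threshold. Members lower numbered 32 to 38 on the other scalings and 31 to 36 with 1 library left out, and 20 when tested against a 1.5-fold change. Members higher numbered 5 to 7 with 1 library left out, 3 against a 1.5-fold change, 4 at an adjusted p under 0.01, and 4 without vehicle library 3 and panobinostat library 1. Pairs passing numbered 0 to 15 with 1 library left out, 0 without panobinostat libraries 3 and 4, and 0 without vehicle library 3 and panobinostat library 1. In these last settings the smallest possible p is 0.0667 and 0.10, so no pair could pass, and 10 and 19 pairs stood at it. The median log2 change of all genes was -0.12 after quantile normalization, -0.14 and -0.18 after centring on the median and on a trimmed mean, and 0.10 scaled to read totals.

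Signs turned only in members without a call. Under quantile normalization Kdm4b changed by 0.0479, Kdm4c by -0.0264, Kdm5b by 0.00167, Kmt2c by 0.132 and Setd3 by 0.202, which for Setd3 passed as higher (limma adjusted p = 0.0383). With library weights Kdm4b was at 0.0102, Kmt5a at -0.0453 and Setd3 at 0.0232. Centred on the median, Kdm4c was at -0.0846 and Kmt5a at -0.0886, and on a trimmed mean at -0.128 and -0.132. Scaled to read totals, Setd3 was at 0.0658. With 1 library left out, Kdm4c ranged from -0.0378 (without vehicle 2) to 0.0882, Kdm5d from -1.29 (without vehicle 3) to 0.0688 (without panobinostat 1), and Kmt5a from -0.0222 (without vehicle 3) to 0.103, with -0.00622 without vehicle 1. Without vehicle 3 and panobinostat 1 together Kmt5a was at -0.0332. The cause of these turns was not tested. No paired analysis was possible because the labels give no replicate numbers shared between the groups. Members with few reads, such as Prdm1 and Kdm6bos, have wide errors.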

Other observations

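Rest, the transcription factor that recruits the LSD1 and CoREST complex to neuronal genes, was among the partners that were higher. It had 286, 149, 84 and 58 reads with vehicle and 773, 623, 674 and 485 with panobinostat, a log2 change of 2.46 (SE 0.42, limma adjusted p = 0.000784). The vehicle libraries spread widely and lay below all panobinostat libraries. The libraries hold stroma as well as tumour cells, and the part of other cells in the Rest value was not tested. The deacetylases of the same complex, which are targets of the drug, gave different values: Hdac2 changed by -0.75 (SE 0.10, adjusted p = 0.000226) and Hdac1 by 0.16 (SE 0.10, adjusted p = 0.193). Hspbap1, a Jumonji gene outside the naming rule, had 72 to 181 reads per vehicle library and 332 to 399 per panobinostat library, a log2 change of 1.67 (SE 0.26, adjusted p = 0.000452).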
